A study of Mus musculus with 6 samples.

Results

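The 10 genes described here are Gpx4, Slc7a11, Aifm2, Acsl4, Gclc, Gclm, Nqo1, Txnrd1, Srxn1 and Dhodh. Except for Acsl4, which promotes ferroptosis, they are tied to the defences of a cell against it or to glutathione and related reducing systems. The 10 genes were chosen by name, and each matched 1 of the 55349 genes in the deposited table. All 10 passed the filter on low counts, which left 13268 genes for testing. Expression was measured by RNA sequencing of subcutaneous tumours of B16F10, a pigmented melanoma line from C57BL/6 mice. The shControl tumours, with a genotype labelled WT, gave 3 libraries (replicates 1, 4 and 5), and the shSQLE tumours, labelled as SQLE knockdown, gave another 3 (replicates 1, 2 and 5). No drug or other treatment is labelled for either group. The sources used here do not give the hairpin sequences, the number of clones, the host mice or the age of the tumours. Values of single libraries are listed below in the order of these replicate numbers, as "with the control hairpin" for shControl and "with the SQLE hairpin" for shSQLE.

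Ferroptosis is a form of cell death in which iron drives the peroxidation of unsaturated fatty acids in membrane phospholipids. Cells prevent it by reducing lipid peroxides with glutathione, which is built from imported cystine, and by keeping lipid-soluble quinones in their reduced, radical-trapping state. Sqle encodes squalene epoxidase, an enzyme of cholesterol synthesis that consumes squalene. Squalene that builds up when this enzyme is lost has been reported to protect some human lymphoma cells from ferroptosis.

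Total expected counts per library lay between 16408622 and 19142185. The targeted gene averaged 148 ± 2.71 CPM (counts relative to library size, scaled by TMM) with the control hairpin against 71.4 ± 5.24 with the SQLE hairpin (SD, n = 3 each). The ranges of Sqle did not overlap. All 8 markers of the melanocyte lineage were detected, and summed to 13496 to 15682 CPM across shControl and 14899 to 17462 CPM across shSQLE. Markers of host cells varied between single tumours. Their levels are given beside some of the genes, and whether they move together was not tested. In tumours sequenced as a whole, fewer cells of a type and less RNA per cell cannot be told apart. Since nothing labels the replicates as different mice, p-values here reflect the spread between libraries alone, which may be technical.

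No member passed the test between shSQLE and shControl. By edgeR (quasi-likelihood, Benjamini-Hochberg adjusted), 0 of the 10 had an adjusted p under 0.05, where 0% of the 13268 tested genes did. The targeted gene Sqle, at a log2 fold change of -1.05 (SE 0.17), did not pass that threshold either (adjusted p = 0.9996 by edgeR, 8.84e-05 by DESeq2). At an unadjusted p under 0.05 the count was also 0 of 10, against 3.11% of all tested genes (1.49% higher and 1.62% lower in shSQLE). DESeq2 and limma voom likewise called 0 of the 10 at the adjusted and at the unadjusted threshold. The libraries of the groups overlapped for all 10 members, whereas they did not overlap for 6.44% of the tested genes (3.1% higher and 3.35% lower in shSQLE). The fitted difference was above 0 for 5 of the 10 members, against 47.4% of all tested genes. Its median was 0.0048 on the log2 scale, beside -0.02 over all tested genes, and became -0.03 with upper quartile scaling and -0.06 with library size alone. The adjusted p was 0.9996 for each of the 10, and the unadjusted p ranged from 0.159 for Nqo1 to 0.811 for Gpx4.

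**Figure D1:**
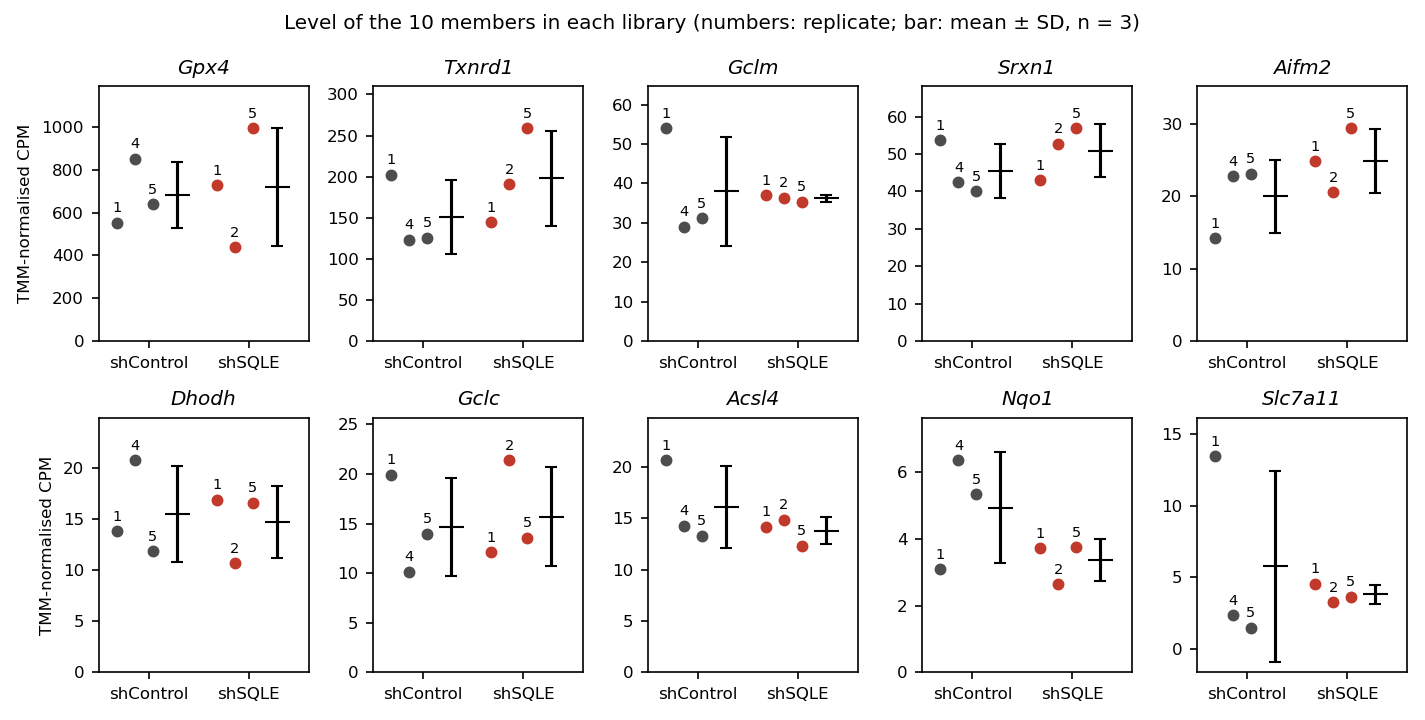
TMM-normalised CPM (y axis, linear, a separate scale per gene) of the 10 genes in the 3 shControl and the 3 shSQLE libraries. Points are libraries with their replicate number, and bars are the mean ± SD (n = 3). The groups overlap in every panel, and shControl replicate 1 lies far above the other 5 libraries for Slc7a11.

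Among the 10 members Gpx4 had the highest level per length. Gpx1, a related peroxidase that is no member, was at a like level, 1045 ± 422 CPM per kilobase in shControl and 1081 ± 248 in shSQLE, against 1030 ± 232 and 1088 ± 420 for Gpx4 (SD, n = 3 each); it was named after its values were seen. Gpx4 encodes the selenium-containing peroxidase that reduces phospholipid hydroperoxides with glutathione. Its level was 554, 852 and 640 CPM with the control hairpin and 730, 438 and 995 CPM with the SQLE hairpin. The lowest and the highest value were both from shSQLE, so that the shControl range lay inside the shSQLE range. As a log2 fold change of shSQLE over shControl this was 0.08 (SE 0.32), and the 95% confidence interval ran from -0.66 to 0.82. The annotated pseudogene Gpx4-ps2 held 509 to 1755 expected counts per library, equal to 5.89% to 10.1% of the Gpx4 count, and some reads may have been assigned between the pair. With its counts added to Gpx4, an alternative chosen after seeing the data, the log2 fold change was 0.09 (SE 0.33).

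Aifm2 encodes FSP1, which regenerates the reduced form of coenzyme Q at the plasma membrane without glutathione. It stood at 14.2, 22.8 and 23.2 CPM with the control hairpin and at 24.9, 20.6 and 29.4 CPM with the SQLE hairpin. shControl replicate 1 was the lowest library and shSQLE replicate 5 the highest, while the other 4 lay close together. The log2 fold change was 0.32 (SE 0.25), with an interval from -0.25 to 0.89. The expected counts of Aifm2 were not whole in any of the 6 libraries, and the gene overlaps Macroh2a2, so part of its reads may be shared. Dhodh, the mitochondrial enzyme of pyrimidine synthesis that reduces coenzyme Q in the inner membrane, read 13.8, 20.8 and 11.9 CPM with the control hairpin and 16.9, 10.7 and 16.6 CPM with the SQLE hairpin. The 2 groups covered nearly the same range for Dhodh, and its log2 fold change was -0.07 (SE 0.29; interval -0.73 to 0.58).

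Cystine import and glutathione synthesis were described by 3 members. Slc7a11 encodes the transport subunit of the cystine and glutamate exchanger, and it varied more between libraries than any other member. With the control hairpin it read 13.5, 2.36 and 1.47 CPM, from 247, 40 and 27 counts. With the SQLE hairpin it read 4.56, 3.25 and 3.64 CPM, from 81, 64 and 66 counts. The highest library and the 2 lowest were all shControl, and the 3 shSQLE libraries lay between them. The group means were 5.76 ± 6.67 CPM and 3.82 ± 0.675 CPM (SD, n = 3 each), and the log2 fold change was -0.60 (SE 0.73; interval -2.25 to 1.06). Its range over the 6 libraries, 3.10 on the log2 scale, was wider than that of 97.3% of the tested genes. The partner subunit Slc3a2, which many amino acid transporters share, stayed between 295 and 335 CPM in the 6 libraries; it was named after its values were seen.

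Glutamate-cysteine ligase, which catalyses the rate-limiting step of glutathione synthesis, consists of a catalytic subunit (Gclc) and a modifier subunit (Gclm). Gclc was at 19.9, 10.1 and 13.98 CPM with the control hairpin and at 12.1, 21.4 and 13.6 CPM with the SQLE hairpin. It was high in 1 library of each group, shControl replicate 1 and shSQLE replicate 2, and its log2 fold change was 0.10 (SE 0.32; interval -0.63 to 0.82). Gclm was at 54.0, 29.0 and 31.2 CPM with the control hairpin and at 37.0, 36.4 and 35.4 CPM with the SQLE hairpin. As for Slc7a11, its 3 shSQLE libraries were close to each other (36.3 ± 0.832 CPM, SD, n = 3) and lay between shControl replicate 1 and the other 2 shControl libraries. The log2 fold change of Gclm was -0.07 (SE 0.26; interval -0.65 to 0.51). Its expected counts were not whole in any library, and the gene overlaps the annotated loci Gm46822 and Gm6061. Per length (CPM per kilobase of effective length), the level of Gclm was 4.97 to 8.93 times that of Gclc, lowest in shSQLE replicate 2 and highest in shSQLE replicate 1.

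Txnrd1, Srxn1 and Nqo1 are reducing enzymes and textbook targets of NRF2, the transcription factor that oxidative stress releases from its inhibitor KEAP1, and Gclc, Gclm and Slc7a11 are NRF2 targets as well. Txnrd1 encodes cytosolic thioredoxin reductase, a selenoprotein. It held 202, 123 and 126 CPM with the control hairpin and 144, 191 and 259 CPM with the SQLE hairpin. The level of shControl replicate 1 lay above 2 of the 3 shSQLE libraries, and the log2 fold change of 0.40 (SE 0.29; interval -0.25 to 1.04) was the highest among the members. Srxn1, sulfiredoxin, which restores over-oxidised peroxiredoxins, was the steadiest member. It was at 53.8, 42.5 and 40.1 CPM with the control hairpin and at 43.0, 52.8 and 56.8 CPM with the SQLE hairpin. Its log2 fold change was 0.16 (SE 0.20; interval -0.30 to 0.62), the narrowest interval of the 10. Nqo1, a quinone reductase, was low in both groups, with 3.10, 6.37 and 5.35 CPM for the control hairpin and 3.72, 2.64 and 3.75 CPM for the SQLE hairpin, from 52 to 108 counts. The 2 highest values of Nqo1 were from shControl replicates 4 and 5, and its log2 fold change was -0.55 (SE 0.36; interval -1.37 to 0.26). Txnrd1 and Nqo1 thus had estimates of opposite sign, and neither passed the test. Txnrd1 overlaps the loci Gm38560 and Eid3, and whether reads were counted by strand is not given.

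NRF2 acts through antioxidant response elements, and the windows of Gclm, Txnrd1 and Srxn1 are shown because they hold the motifs searched for. RefSeq windows on GRCm38.p6 were found for 8 of the 10 members, 13 windows in all, and Gclc and Dhodh had none. The 250 bases before each annotated start were searched on both strands for TGACNNNGC, a form of the core of the antioxidant response element. They were also searched for TGAGTCA, the site of AP-1 factors, a motif that partly overlaps the longer forms of the element. Forms of the core with G as the base before the open positions (N) were not searched for. TGACNNNGC was found in 2 of the 13 member windows, against 10.2% of all 32851 windows. It lay in the Gclm window at bases 134 to 126 before the start and in 1 of the 3 Txnrd1 windows at bases 92 to 84, on the antisense strand in both. TGAGTCA occurred at bases 102 to 96 and 45 to 39 before the start of Srxn1 and in no other member window, against 4.46% of all windows. In the Srxn1 sequence below, the match at bases 45 to 39 is followed by gc, so it begins a form of the core that was not searched for. The counts of TGACNNNGC therefore do not show that Srxn1 lacks the core. These matches describe letters in a short window and say nothing of binding. In the sequences, written 5′ to 3′ along the gene, capitals mark the matches; they are at chr3:122245307-122245556 (plus strand) for Gclm, chr10:82858956-82859205 (plus strand) for Txnrd1 and chr2:152105274-152105523 (plus strand) for Srxn1.
Gclm: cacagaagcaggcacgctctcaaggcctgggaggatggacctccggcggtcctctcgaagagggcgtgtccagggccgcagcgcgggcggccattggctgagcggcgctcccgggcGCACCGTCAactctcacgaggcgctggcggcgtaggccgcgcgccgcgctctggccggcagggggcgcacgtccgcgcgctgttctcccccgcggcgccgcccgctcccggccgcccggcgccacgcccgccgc
Txnrd1: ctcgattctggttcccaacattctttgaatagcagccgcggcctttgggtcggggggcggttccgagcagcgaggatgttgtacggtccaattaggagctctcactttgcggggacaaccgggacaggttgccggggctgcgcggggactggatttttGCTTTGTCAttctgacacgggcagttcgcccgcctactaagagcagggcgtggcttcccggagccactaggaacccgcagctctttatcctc
Srxn1: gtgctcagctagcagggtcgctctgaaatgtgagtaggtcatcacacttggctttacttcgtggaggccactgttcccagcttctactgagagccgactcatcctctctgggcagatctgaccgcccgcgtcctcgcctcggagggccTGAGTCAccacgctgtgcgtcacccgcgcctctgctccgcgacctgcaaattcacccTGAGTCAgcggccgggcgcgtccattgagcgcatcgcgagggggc

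Acsl4 is the member that promotes ferroptosis, since it loads arachidonic acid and similar polyunsaturated fatty acids into the lipids that are peroxidised. It stood at 20.7, 14.3 and 13.3 CPM with the control hairpin and at 14.2, 14.9 and 12.4 CPM with the SQLE hairpin. Apart from shControl replicate 1, the libraries of both groups lay within a narrow band. The log2 fold change was -0.22 (SE 0.24; interval -0.77 to 0.32).

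**Figure D2:**
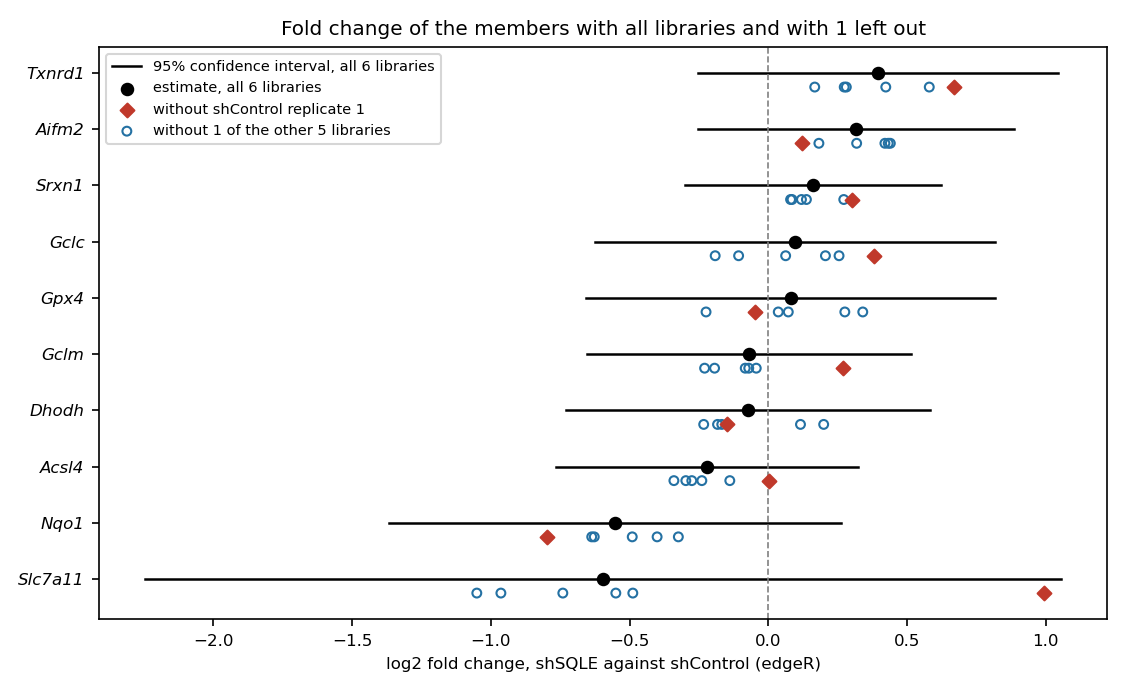
Log2 fold change of shSQLE against shControl from edgeR (x axis) for each of the 10 genes. Black points and lines are the estimate and its 95% confidence interval from all 6 libraries, red diamonds the estimate without shControl replicate 1 and blue circles the estimates without each of the other 5 libraries. Every interval includes 0, and the Slc7a11 estimate moves from -0.60 to 0.99 without shControl replicate 1.

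Levels of different members can be compared per length. As the mean over all 6 libraries in CPM per kilobase, the order was Gpx4 (1059 ± 305), Txnrd1 (61.7 ± 18.8), Gclm (36.5 ± 8.66), Srxn1 (19.5 ± 2.87), Aifm2 (12.4 ± 2.76), Dhodh (12.2 ± 3.02), Gclc (5.11 ± 1.51), Acsl4 (3.68 ± 0.726), Nqo1 (3.12 ± 1.07) and Slc7a11 (0.532 ± 0.486), each with its SD over 6 libraries. Neighbours in this order kept their order in all 6 libraries, with 3 exceptions. Aifm2 exceeded Dhodh in 3 of 6 libraries, Gclc exceeded Acsl4 in 5 and Acsl4 exceeded Nqo1 in 4. The ranges of Txnrd1 and Gclm overlapped between libraries, although Txnrd1 was above Gclm within each one. Per length, the transporter for cystine was thus the scarcest of the 10 transcripts and the peroxidase at the end of the route the most abundant, in shControl and in shSQLE tumours alike. The last place of Slc7a11 rests on its effective length of 9000.5 bases. By CPM it averaged above Nqo1, at 5.76 against 4.94 in shControl and 3.82 against 3.37 in shSQLE.

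The members did not vary as 1 block across the tumours. shControl replicate 1 had the highest level of 3 members (Slc7a11, Gclm and Acsl4) and the lowest level of Aifm2. Over all tested genes it was the highest library for 26.5% and the lowest for 21.9%. shSQLE replicate 5 was highest for 4 members (Gpx4, Aifm2, Txnrd1 and Srxn1) and for 16.3% of all tested genes. shSQLE replicate 2 was lowest for 3 members (Gpx4, Nqo1 and Dhodh) and for 20.6% of all tested genes, and highest for Gclc. In shSQLE replicate 2, Gclc lay 0.54 above its own mean on the log2 scale while Gpx4 lay 0.63 below its mean (-0.63). shControl replicate 1 had the same signs, 0.44 for Gclc and -0.29 for Gpx4.

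**Figure D3:**
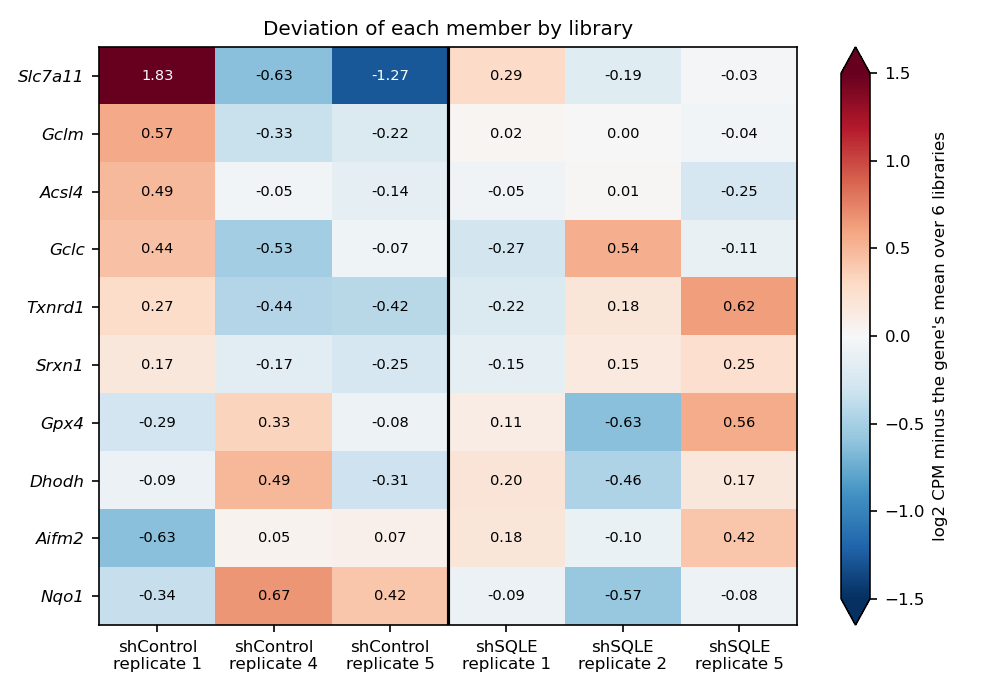
Log2 CPM of each gene in each library minus the gene's mean over the 6 libraries, in colour and as a number (red above, blue below the mean). The columns are libraries, with a line between shControl and shSQLE. The upper 6 genes are above their mean in shControl replicate 1 and the lower 4 below it, since the rows were arranged that way.

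Leaving out shControl replicate 1 changed the picture for several members, and the 2 remaining shControl libraries then set the comparison. Each library was left out in turn, and this one is set apart because of the members' own values. The counts without it are therefore descriptions and no evidence of a difference. The groups no longer overlapped for 5 of the 10 members, against 14.7% of the 13525 genes tested without that library. These were Slc7a11, Gclm, Txnrd1 and Srxn1, with the higher level in shSQLE, and Nqo1, with the lower. At an unadjusted p under 0.05 there were 3 of 10, against 2.82% of the genes tested. They were Slc7a11 with a log2 fold change of 0.99 (SE 0.38), Txnrd1 with 0.67 (SE 0.27) and Nqo1 with -0.80 (SE 0.30). None passed edgeR's adjusted threshold there (0 of 10, against 0% of all genes; adjusted p = 0.99997 for each). The sign of the estimate changed from minus to plus for Slc7a11, Gclm (0.27, SE 0.16) and Acsl4 (0.0020, SE 0.20) and from plus to minus for Gpx4 (-0.05, SE 0.36). The new estimates of Acsl4 and Gpx4 were near 0 beside their SE. Without shSQLE replicate 2, 1 member (Aifm2) had groups that did not overlap, against 14.5% of the genes tested then, and 0 had an unadjusted p under 0.05, against 1.92%. Without shControl replicate 4 or 5, or shSQLE replicate 1 or 5, both counts were 0. Among all genes tested in those fits, 10.9% to 21.0% had groups that did not overlap. An unadjusted p under 0.05 by edgeR was found for 2.16% to 6.57% of them.

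Markers of some host cells, and not of others, were highest in shControl replicate 1. Endothelial markers summed to 137 CPM there, against 58.0 to 97.1 CPM elsewhere, and 6 of the 7 were highest there. Fibroblast markers summed to 535 CPM, against 57.3 to 405 CPM elsewhere, but 4 of the 8 were highest in another library, and their mean log2 CPM was 3.86, below the 3.95 of shControl replicate 5. Macrophage and adipocyte markers had their highest sums in shControl replicate 5 (416 and 149 CPM) and stood at 181 and 63.0 CPM in shControl replicate 1. All 8 fibroblast and all 7 endothelial markers were detected in every library, with summed levels of 135 to 535 CPM in shControl and 57.3 to 405 CPM in shSQLE for fibroblasts and of 58.0 to 137 CPM and 65.7 to 78.2 CPM for endothelium. Fitted estimates were below 0 for all 8 fibroblast (median -0.54), all 7 endothelial (median -0.54) and 9 of 10 macrophage markers (median -0.28). They were above 0 for all 5 red blood cell markers (median 1.06). Of these, 1 fibroblast and 1 endothelial marker had an unadjusted p under 0.05 by edgeR, and the groups overlapped for every marker. The part of host cells in the level of Slc7a11 and the other members was not tested. Hmox1, the haem oxygenase that NRF2 also induces, was at 442 CPM in shControl replicate 1 and at 131 to 192 CPM in the other 5 libraries. In its list, NRF2 pathway and NADPH supply, 10 of 23 genes were highest in shControl replicate 1, beside 26.5% of all tested genes. G6pdx (91.0 CPM) and Tkt (393 CPM) were lowest there, and the member Nqo1 was at 3.10 CPM, its second lowest level. Hmox1, G6pdx and Tkt were named after their values were seen. The list of glutathione peroxidases and transferases had its lowest sum in shControl replicate 1 (2649 CPM), and the thioredoxin list its second lowest (2787 CPM). Bach1, a repressor of NRF2 targets, was at 14.5 CPM there and at 4.79 to 8.07 CPM elsewhere.

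The regulators themselves did not pass the test. Nfe2l2, which encodes NRF2, averaged 104 ± 16.4 CPM with the control hairpin and 87.6 ± 9.97 CPM with the SQLE hairpin (SD, n = 3 each; log2 fold change -0.25, SE 0.20). Keap1 averaged 56.1 ± 2.27 and 56.7 ± 6.93 CPM, from expected counts that were not whole in 5 libraries. Its log2 fold change of 0.01 (SE 0.18) had the other sign with upper quartile scaling (-0.02) and with library size alone (-0.05). For Bach1 the log2 fold change was -0.32 (SE 0.42), and 0.29 without shControl replicate 1.

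Other genes of these pathways were described from 7 lists, and 0 genes of any list passed edgeR's adjusted threshold. At an unadjusted p under 0.05 there were 3 of the 133 tested genes in the 7 lists together (2.26%), below the 3.11% of all tested genes. They were Gstk1, Txnrd2 and Me1, and their values are given as descriptions. The groups did not overlap for 2 of 18 genes of glutathione synthesis, recycling and breakdown. In the lists of peroxidases and transferases (20 genes), thioredoxin (18), NRF2 (23) and coenzyme Q (20) this held for 1 gene each. It held for 0 genes of lipid peroxidation (23 tested) and of selenoprotein synthesis (11), and for 6.44% of all tested genes. With 1 library left out, the median changed sign for each list except that of the NRF2 pathway and NADPH supply. The list of NRF2 pathway and NADPH supply genes showed estimates above 0 for 7 of 23 genes and below 0 for 16, and its median was -0.11 on the log2 scale, beside -0.02 over all tested genes. That median was -0.19 with library size alone, -0.03 without shControl replicate 1 and -0.05 without shSQLE replicate 2. Its 1 gene at an unadjusted p under 0.05 was Me1, malic enzyme, a source of NADPH. Me1 held 121, 96.4 and 90.1 CPM with the control hairpin and 84.6, 67.7 and 63.7 CPM with the SQLE hairpin. All shSQLE libraries were below all shControl libraries, by a narrow margin, and the log2 fold change was -0.51 (SE 0.20). Me1 is also a gene of adipocytes. Of the 6 adipocyte markers 4 were tested and all 4 were lower in shSQLE at an unadjusted p under 0.05, though the groups overlapped for all 4. Their summed levels were 63.0, 20.7 and 149 CPM with the control hairpin and 20.1, 19.7 and 26.3 CPM with the SQLE hairpin. Me1 and all 4 tested markers had estimates below 0, while within neither group did the sums follow the order of Me1. Adipoq, Plin1 and Cidec were at 0 in shSQLE replicate 1, and Lep in 3 libraries. The part of adipocytes in the level of Me1 was not tested.

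In the thioredoxin and peroxiredoxin list estimates were above 0 for 15 of 18 genes, with a median of 0.07 on the log2 scale. The median was 0.04 with upper quartile scaling, 0.01 with library size alone, -0.06 without shControl replicate 1 and -0.02 without shSQLE replicate 5. The groups overlapped in the mean log2 CPM of this list, which was lowest in shSQLE replicate 2 (6.07) and highest in shSQLE replicate 5 (6.67). Txnrd2, the mitochondrial thioredoxin reductase, was at 24.2, 25.7 and 25.3 CPM with the control hairpin and at 30.8, 32.8 and 67.0 CPM with the SQLE hairpin. Its 3 shSQLE libraries lay above all shControl libraries, with shSQLE replicate 5 far above the rest. The log2 fold change of Txnrd2 was 0.79 (SE 0.30), and 0.35 without shSQLE replicate 5. The expected count of Txnrd2 was not whole in 1 library. Gstk1, a glutathione transferase of mitochondria and peroxisomes, had a like distribution, with 5.66, 8.20 and 6.06 CPM for the control hairpin and 8.84, 11.0 and 21.3 CPM for the SQLE hairpin. Its log2 fold change of 1.04 (SE 0.36) was 0.58 without shSQLE replicate 5. That library also held the highest summed level of skeletal muscle markers, 1476 CPM, against 14.4 to 155 CPM in the other 5. The fitted estimates of all 7 muscle markers were above 0, none at an unadjusted p under 0.05, and without shSQLE replicate 5 they were above 0 for 2 and below 0 for 5, with a median of -0.16. Their sums had ranges of 14.4 to 155 CPM in shControl and 31.3 to 1476 CPM in shSQLE, and Tnnt3 was at 0 in shControl replicate 5. The part of muscle in these values was not tested.

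**Figure D4:**
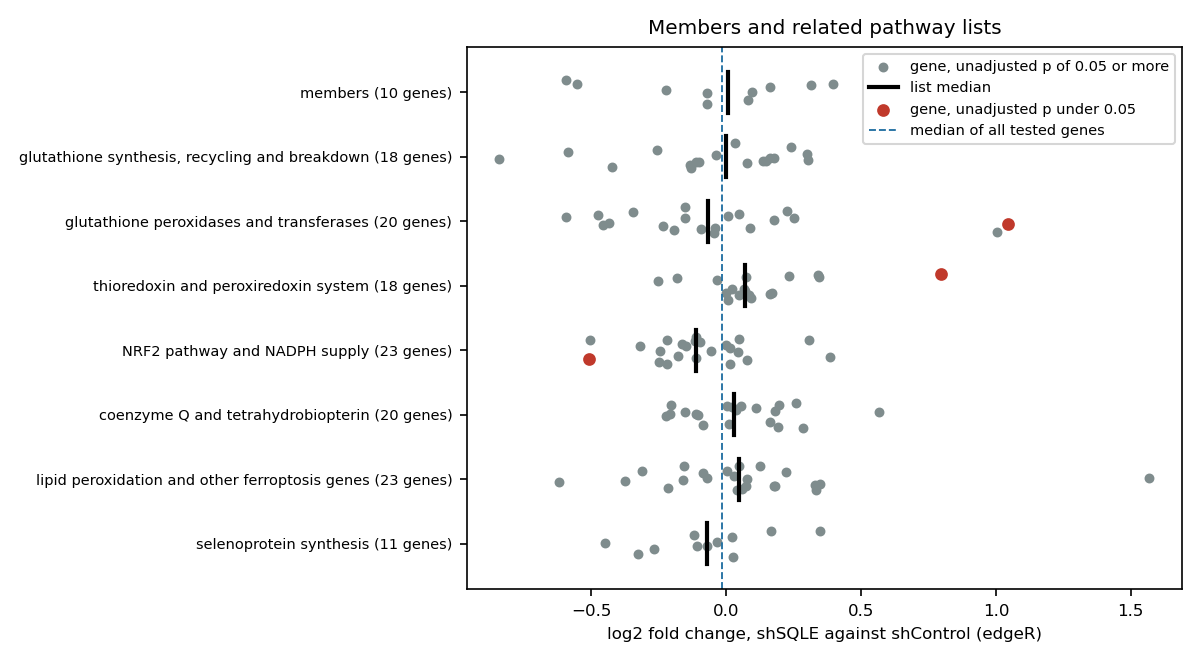
Log2 fold change of shSQLE against shControl (x axis) for each tested gene of the 10 members and of 7 related lists. Points are genes, red where the unadjusted p was under 0.05, black bars are list medians and the dashed line is the median of all tested genes. List medians lie between -0.11 and 0.07, and the 3 red points are Gstk1, Txnrd2 and Me1.

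Around glutathione itself, 9 of 18 genes for its synthesis, recycling and breakdown were higher in shSQLE and 9 lower, with a median of -0.0017. The genes of this list with the smallest p were Chac2, which degrades glutathione, at -0.42 (SE 0.29), and Slc25a39, which carries glutathione into mitochondria, at 0.30 (SE 0.24). Of the glutathione peroxidases and transferases 8 of 20 were higher, with a median of -0.07, and Gstk1 was the 1 gene at an unadjusted p under 0.05. Their summed level was low in 1 library of each group, at 2649 CPM for shControl replicate 1 and at 2819 for shSQLE replicate 2, and 4224 to 4658 CPM in the other 4 libraries. The list of coenzyme Q and tetrahydrobiopterin synthesis, which serves the routes of Aifm2 and of the radical trap tetrahydrobiopterin, had the same 2 libraries lowest, at 685 and 665 CPM, against 860 to 993 CPM. In that list 13 of 20 genes had estimates above 0, and the median of 0.03 had the other sign with upper quartile scaling (-0.0029) and with library size alone (-0.03). The smallest p belonged to Gch1, the entry enzyme of tetrahydrobiopterin synthesis, at 0.57 (SE 0.31) and the coenzyme Q methyltransferase Coq5 at 0.26 (SE 0.18). Gch1 was at 0.27 without shSQLE replicate 5.

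Genes of lipid peroxidation and other genes tied to ferroptosis had 15 of 23 tested members higher, with a median of 0.05 that became -0.01 with library size alone. Of the 27 genes in that list 4 failed the filter on low counts: the lipoxygenases Alox5, Alox15 and Aloxe3 and the prostaglandin synthase Ptgs2, with at most 16, 5, 11 and 25 counts in any library. The genes with the smallest p were the small heat shock protein Hspb1, at 1.57 (SE 0.84), and the phospholipase Pla2g6, at 0.35 (SE 0.20). Hspb1 reached 29.6 CPM in shSQLE replicate 5 and 2.84 to 5.72 CPM in the other 5 libraries. Its log2 fold change was -0.23 without shSQLE replicate 5, which had the highest sum of muscle markers (1476 CPM). In shControl replicate 4, whose sum was the next highest but far lower (155 CPM), Hspb1 was at 3.72 CPM. The part of muscle in the level of Hspb1 was not tested. Selenoprotein synthesis, on which Gpx4 and Txnrd1 depend, had 4 of 11 genes higher (median -0.07). Selenop, the selenium carrier of plasma, averaged 116 ± 19.6 CPM with the control hairpin and 85.2 ± 10.7 CPM with the SQLE hairpin (SD, n = 3 each; log2 fold change -0.45, SE 0.20). Eefsec, the elongation factor for selenocysteine, was at 0.35 (SE 0.27), with expected counts that were not whole in any library, and its log2 fold change was 0.12 without shControl replicate 1.

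The genes closest in pattern to 4 of the 5 most variable members were found by the root mean square difference of centred log2 CPM over the 6 libraries, a description without a test. Among 8606 candidates with a mean of at least 10 CPM, the 3 closest to Slc7a11 were Niban1 (0.414), Ccn2 (0.490) and Apln (0.508), values that were large beside its own spread of 0.955. For Apln, which encodes the peptide apelin, shControl replicate 1 was at 33.1 CPM and the other libraries at 5.61 to 10.00 CPM. For Gclc, the 3 closest of 8605 candidates were Cd44 (0.0381), Nrp2 (0.0734) and Cdh2 (0.0865), against an own spread of 0.378. Cd44, a cell surface receptor for hyaluronan, was likewise high in shControl replicate 1 (222 CPM) and shSQLE replicate 2 (257 CPM) and at 115 to 159 CPM in the other 4. Those closest to Txnrd1 were Stx3 (0.0812), Zfta (0.0972) and Lpcat1 (0.132), and to Nqo1 H2aw (0.0885), Neurl2 (0.154) and Syne4 (0.154). Among the members themselves, Gclm and Acsl4 were closest to each other (0.154), as were Txnrd1 and Srxn1 (0.208) and Gpx4 and Dhodh (0.223). The difference between Txnrd1 and Srxn1 was larger than the own spread of Srxn1 (0.195), beside 0.390 for Txnrd1.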

How the data were processed

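For each gene the deposited table gives its expected count in the 6 libraries and its length and effective length. The submitters' processing notes name the tools FastQC, STAR, RSEM and DESeq2 and the build GRCm39; the sources used here give no versions, settings, annotation release or strand use. Expected counts share out reads that match several genes, and between 11.4% and 12.7% of nonzero values per library were not whole (tolerance 1e-06). They were rounded, filtered with filterByExpr (minimum count 10, minimum total 15; 99.88% to 99.93% of counts kept) and scaled by TMM (factors 0.928 to 1.12). The test was the quasi-likelihood F test of edgeR 4.0.16 (R 4.3.3; robust=TRUE; group as the only term; all 6 libraries), with Benjamini-Hochberg adjustment over the 13268 tested genes and a threshold of 0.05. It was checked on simulated data. SEs are the log2 fold change divided by the square root of F. The exact two-sided permutation p of the 10 members, which cannot go below 0.1 with 3 libraries against 3, ranged from 0.3 to 1. Log2 CPM used a prior count of 2. Every pair of libraries differed by more than sampling noise.

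Members and lists were chosen with earlier results of these data known. Named genes are the members, Sqle, Nfe2l2, Keap1, Bach1, from each list those at an unadjusted p under 0.05 or else the 2 with the smallest p, and the genes closest in pattern to the 5 most variable members (those of Gpx4 are not reported here); others are marked. Markers of 9 cell types were summed per library; neutrophil markers reached at most 5.90 CPM (Ly6g at 0 in all 6 libraries), 1 of 6 T cell markers passed the filter, and red blood cell markers were at 2853 to 28647 CPM and macrophage markers at 65.3 to 416 CPM. Alternatives were other scalings, filters and tests (DESeq2 1.42.0, limma 3.58.1), robust=FALSE, an adjusted p of 0.1, a replicate block, and leaving out 1 library at a time. Overlapping genes and promoter windows came from RefSeq on GRCm38.p6; no coordinates were carried between builds. Plots used matplotlib 3.10.9 (Python 3.11.15).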

Additional observations from a re-analysis of the deposited data

How the results depend on the processing

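No member passed an adjusted p of 0.05 under any alternative, including a threshold of 0.1. The counts of members at an unadjusted p under 0.05 and of members whose groups did not overlap were 0 under every scaling, filter and test tried, and 0 to 3 and 0 to 5 with 1 library left out, the highest without shControl replicate 1. The median log2 fold change of the members ranged from -0.09 to 0.19 with 1 library left out. Of 151 member values under alternatives 139 kept their sign, and Aifm2, Nqo1, Txnrd1 and Srxn1 kept it in all. With 1 library left out, ranges that crossed 0 were -0.22 to 0.34 for Gpx4, -1.05 to 0.99 for Slc7a11, -0.34 to 0.0020 for Acsl4, -0.19 to 0.38 for Gclc, -0.23 to 0.27 for Gclm, -0.23 to 0.20 for Dhodh, -0.0858 to 0.07 for Keap1, -0.57 to 0.29 for Bach1 and -0.23 to 2.01 for Hspb1. Slc7a11 was at 0.0487 with limma voom. Keap1 was at -0.0185 with upper quartile scaling and -0.0473 with library size alone. The cause of these changes was not tested.

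Replicate numbers 1 and 5 are shared by the groups. Deviations from the group means, over the tested genes, had a correlation of -0.13 for number 1 and 0.07 for number 5. Between libraries of unlike numbers it ran from -0.48 to 0.41. Deviations within so small a group depend on each other, so these values cannot show whether equal numbers are pairs. The labels do not say so, and the numbers were not taken as pairs. With the replicate number as a block, the group difference rests on the libraries numbered 1 and 5 alone. The other numbers are not shared by the groups, and the block takes up their libraries in full. Shifts and calls with the block therefore do not describe the full set of libraries. In that fit Gclc was at -0.38 and Dhodh at 0.39, and 0 members passed. Other members that moved by over 1.5 times with the block were Gpx4 (0.52), Aifm2 (0.57), Slc7a11 (-0.22), Gclm (-0.18), Nqo1 (-0.13) and Srxn1 (0.09). Over all genes, calls went from 0 to 41 with the block, to 31 without shSQLE replicate 1 and to 6 with DESeq2. Slc7a11 (27 to 247 counts per library) and Nqo1 (52 to 108) had the lowest mean counts among the members.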
